A study of Mus musculus with 8 samples.

Results

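The comparison concerned mouse mammary tumours that had already been exposed to RANK-Fc and then either kept receiving it or did not. It used 6 of the 16 tumours of the series, chosen by their treatment labels: 3 continued tumours (code FC_FC, RANK-Fc as neoadjuvant and as adjuvant; animals c606, c607 and c626) and 3 stopped tumours (code FC_CT, RANK-Fc as neoadjuvant; animals c603, c608 and c609). All 6 were pieces of orthotopic MMTV-PyMT tumours in passage 2, grown in wild-type FVB mice, the tumours being of the FVB strain as well. In the MMTV-PyMT model the polyoma virus middle T antigen is driven by the mouse mammary tumour virus promoter, so the transgene acts in mammary epithelium and the tumours start there. RANK-Fc was injected into the peritoneum at 10 mg/kg, 3 times per week, and neither group was untreated: both carried the earlier exposure, and they differed in the treatment of passage 2. That neoadjuvant stands for passage 1 and adjuvant for passage 2 is a reading of the group codes. The ages, the length of treatment, what the CT part of a code was given and which passage 1 tumour each piece came from were not given in the sources used here, so pieces within a group may share a parent tumour. The p-values rest on the spread between tumours within groups, each from an animal with its own code. That spread was pooled over all 16 tumours of the series, not taken from these 6 alone.

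The remaining 10 tumours served as background: 2 control and 3 RANK-Fc tumours of passage 1, and, in passage 2, 2 tumours that never received RANK-Fc (CT_CT, called control) and 3 that received it for the first time (CT_FC, called started). Total RNA of each tumour was hybridised in 1 channel of 8 Agilent arrays with 2 colours. Levels are given as log2 of the background-corrected and normalised intensity with the fitted dye effect removed, and a difference is the continued minus the stopped value on that log2 scale, with its standard error from the limma fit. The fit weighs pairs of tumours on 1 array, so a difference can depart from that of the group means. Each gene's level is that of 1 probe, so levels are not comparable between genes.

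RANK (gene Tnfrsf11a) is a receptor of the TNF receptor family on luminal mammary epithelial cells, and RANKL (Tnfsf11) is its ligand, which progesterone induces in hormone-sensing neighbours. Receptor engagement recruits TRAF adaptors and activates NF-κB, and the pathway drives expansion of the alveolar epithelium in pregnancy, while forced RANK signalling is known to disturb the later differentiation into milk-secreting cells. RANK-Fc is the soluble outer part of RANK fused to an antibody Fc tail, a decoy that binds RANKL. Osteoprotegerin (Tnfrsf11b) is the natural decoy.

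The 6 tumours were alike in depth and quality. Over all 16 channels, between 47.5% and 56.5% of spots were well above background, 0 spots were saturated, and 239 to 337 spots per array carried an outlier mark. Correlations between pairs of the 6 tumours were 0.973 to 0.991, over those of the 14131 genes tested that had a value in all 16 tumours. Tumour c626 lay farthest out on the first principal component, which held 39.2% of the variance, at -36.1 against -9.87 to 22.3 for the others. Markers of the labelled tissue were present: all 12 mammary epithelial markers were well above background in all 6 tumours, their mean level was 12.14, 12.30 and 12.14 in the continued tumours and 12.12, 12.03 and 12.27 in the stopped ones, and the adhesion genes Epcam and Cdh1 differed by 0.13 ± 0.13 and -0.12 ± 0.09. Tumours c609 and c626 shared an array. All 3 continued tumours and c609 lay in slide row 1, and c603 and c608 in slide row 2, so slide row and group overlap in part.

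Continued tumours had higher signals for a set of secreted proteins of the secretoglobin family and for Pip, for the asparagine synthetase gene Asns and for the cholesterol enzyme gene Cyp51, and lower signals for Bcl2, Notch2, Itga6, Cx3cl1 and Chadl. None of these single differences passed correction for multiple testing. By limma with Benjamini-Hochberg adjustment, 0 of 14131 genes (0%) had an adjusted p under 0.05, and the smallest adjusted p was 0.162. At an unadjusted p under 0.05, 647 genes were higher (4.58%) and 758 lower (5.36%), a total of 1405. The 3 continued levels all lay above the 3 stopped levels for 844 genes (5.97%) and below them for 940 (6.65%). Differences were positive for 51% of genes and negative for 49%, with a median of 0.0039.

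The counts rested partly on single tumours. Without c606, 31 genes had an adjusted p under 0.05 and the unadjusted higher count was 1125. Without c609, 1 gene did, Plekhs1. The higher count was 309 without c626 and 409 without c608. Centring each channel on its median in place of the normalisation used gave 611 higher and 316 lower genes, which moved the higher share of these calls from 46% to 65.9%.

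**Figure D1:**
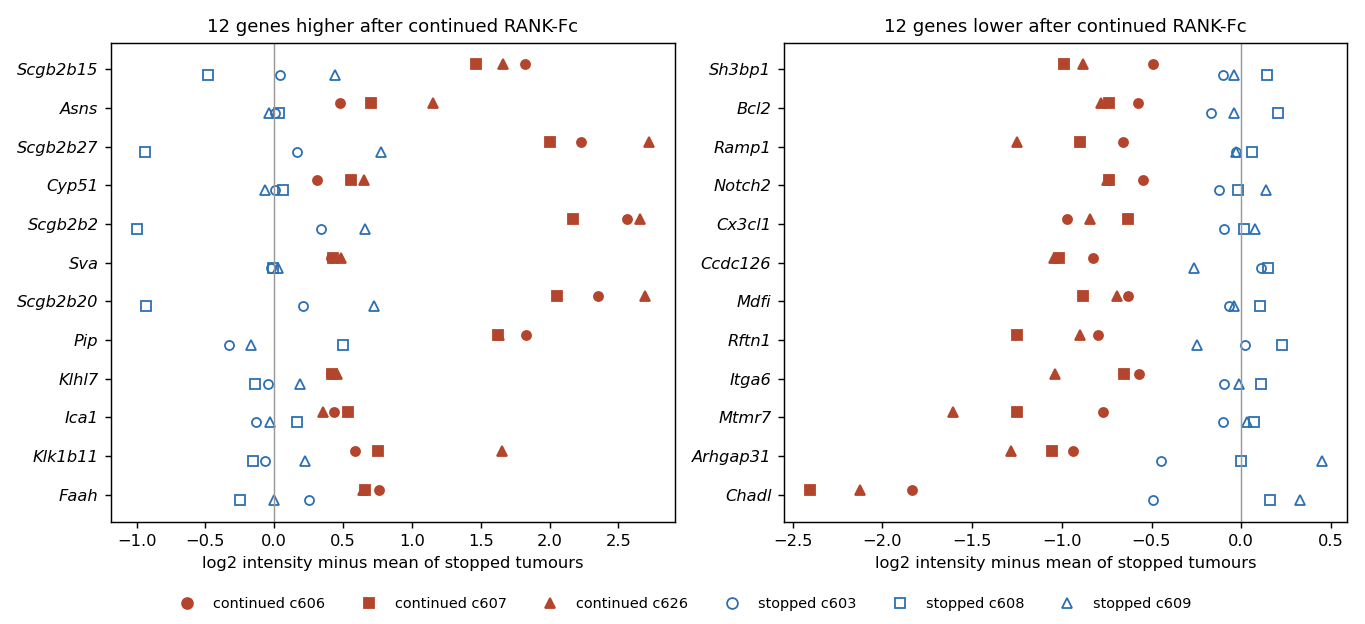
The 12 genes with the smallest unadjusted p in each direction, in 2 panels (higher and lower in continued tumours); the x axis is the log2 level of each tumour relative to the mean of the stopped tumours, with 1 point per tumour and a marker shape per animal. For all 24 genes the 3 continued points lie on one side of the 3 stopped points, and the adjusted p of these genes is between 0.162 and 0.182. The genes were chosen by p in this same comparison, which favours such separation. Over all genes 5.97% were separate in the higher and 6.65% in the lower direction.

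The genes of the blocked pathway itself differed little between the groups. Tnfrsf11a, the receptor, was at 11.99, 12.40 and 12.17 in continued tumours c606, c607 and c626 and at 11.92, 11.97 and 12.16 in stopped tumours c603, c608 and c609, a difference of 0.11 ± 0.17. The groups overlapped, and every tumour carried clear receptor signal. Tnfsf11, the ligand, did not pass the brightness filter and has no value here. Tnfrsf11b, the natural decoy, was at 8.42, 6.69 and 7.08 against 8.17, 7.92 and 7.69, with a difference of -0.55 ± 0.36; c606 was the highest of all 6, and the other 2 continued tumours were the lowest. It was -0.99 without c606 and -0.22 without c607. Id2, an inhibitor of basic helix-loop-helix factors that acts downstream of RANK in mammary cells, was at 13.36, 13.45 and 14.33 against 13.34, 13.29 and 13.34, a difference of 0.46 ± 0.21. The groups did not overlap for Id2, but c606 exceeded the highest stopped tumour by little and c626 stood apart. Without c626 the Id2 difference was 0.02, and without both tumours of the shared array, c609 and c626, it was -0.0008. Of 23 tested RANK pathway genes, 12 had a positive difference and 11 a negative one, with a median of 0.01. Id2 was the 1 gene of these at an unadjusted p under 0.05 (4.58% of all genes were higher at that threshold).

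NF-κB subunits and targets, the transcriptional arm of the pathway, had mostly negative differences: 23 of 27 tested genes, with a median of -0.16, against 49% and 0.0039 over all genes. At an unadjusted p under 0.05, 3 were lower (5.36% of all genes) and 0 higher (4.58%). They were Nfkb1, the p105/p50 subunit, with -0.32 ± 0.12, the neutrophil chemokine gene Cxcl5 with -0.65 ± 0.27, and Bcl3, a nuclear partner of p50, with -0.30 ± 0.14. The count was 1 without c607 and 5 without c626 or without c609. Bcl3 was -0.13 without c609, and Cxcl5 was -0.43 without c608.

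Among the genes with higher signal were androgen-binding protein genes, a mouse branch of the secretoglobins. Secretoglobins are small secreted proteins of exocrine glands, and the mouse branch lies in a cluster on chromosome 7 with many near-identical copies, so a probe may take RNA from more than 1 copy and the names of single members are uncertain. A start region lies mostly before the transcript, so likeness between such regions does not test which copies a probe takes up. The start regions of Scgb2b2, Scgb2b15 and Scgb2b20, which are among the 12 genes with the smallest p, are shown for their likeness. They come from RefSeq on build GRCm38.p6 and run from 250 bases before to 50 after the annotated start, at chr7:31302519-31302818 on the plus strand, chr7:32829604-32829903 on the minus strand and chr7:33366270-33366569 on the minus strand.
Scgb2b2: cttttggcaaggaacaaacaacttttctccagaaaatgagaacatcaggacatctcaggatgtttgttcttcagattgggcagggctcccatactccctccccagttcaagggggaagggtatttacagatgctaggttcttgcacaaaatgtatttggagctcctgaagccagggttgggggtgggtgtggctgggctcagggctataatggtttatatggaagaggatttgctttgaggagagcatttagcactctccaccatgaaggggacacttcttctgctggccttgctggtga
Scgb2b15: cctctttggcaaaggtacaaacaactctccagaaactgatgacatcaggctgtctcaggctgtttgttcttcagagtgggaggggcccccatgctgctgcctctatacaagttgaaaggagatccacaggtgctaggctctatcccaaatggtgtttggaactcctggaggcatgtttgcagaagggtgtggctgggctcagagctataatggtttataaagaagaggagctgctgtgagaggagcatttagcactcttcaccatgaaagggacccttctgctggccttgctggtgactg
Scgb2b20: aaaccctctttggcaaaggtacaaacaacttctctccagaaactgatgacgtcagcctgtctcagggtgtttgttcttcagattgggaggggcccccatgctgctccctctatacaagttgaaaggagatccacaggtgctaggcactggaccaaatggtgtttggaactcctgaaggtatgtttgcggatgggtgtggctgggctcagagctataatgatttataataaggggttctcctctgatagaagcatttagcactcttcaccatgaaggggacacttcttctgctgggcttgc
Aligned pairwise, the Scgb2b15 and Scgb2b20 regions were identical at 85.8% of positions, Scgb2b15 and Scgb2b2 at 78.4%, and Scgb2b2 and Scgb2b20 at 77.2%. These shares count gaps as positions, over alignments of 306 to 311 positions. The start region of Scgb2b27, also among the 12 genes, gave 47.9% to 49.1% with these 3, over alignments of 381 to 390 positions. Such long alignments of 300-base windows hold many gaps, so the lower shares do not show that the Scgb2b27 region is less alike. That of Scgb1b27, a gene of the other subunit, gave 46.6% to 50.4% with the 4, over 344 to 356 positions.

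Scgb2b2 was at 15.00, 14.60 and 15.09 in the continued tumours c606, c607 and c626 and at 12.77, 11.43 and 13.09 in the stopped tumours c603, c608 and c609. Every continued tumour exceeded every stopped one and c608 was the lowest of the 6. The fitted difference was 2.51 ± 0.50, with a 95% confidence interval of 1.42 to 3.60, or 5.71-fold. Its adjusted p was 0.174 by limma. Leaving out each of the 6 tumours in turn kept the difference between 2.01 and 2.92.

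Scgb2b20 was at 15.34, 15.04 and 15.68 in continued tumours and 13.19, 12.06 and 13.71 in stopped tumours, with a difference of 2.43 ± 0.51. Scgb2b27 was at 14.02, 13.80 and 14.52 against 11.96, 10.86 and 12.57, with a difference of 2.36 ± 0.45. Scgb2b15 was at 11.06, 10.704 and 10.90 against 9.28, 8.75 and 9.68, a difference of 1.65 ± 0.29. In each of these genes the groups were apart, the stopped tumours spread more widely than the continued ones, and c608 was lowest. A partner subunit gene, Scgb1b27, had a difference of 2.73 ± 0.61, from 13.06, 12.43 and 11.97 against 10.03, 8.55 and 10.25. The further members Scgb1b3, Scgb1b20, Scgb1b30 and Scgb2b26 had differences of 1.77 to 2.17. Because the copies may share a signal, these 9 genes do not amount to 9 independent observations.

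Pip, the prolactin-induced protein of apocrine and lacrimal secretions, was also higher, and does not belong to that family. It was at 11.63, 11.43 and 11.43 in continued tumours and at 9.47, 10.30 and 9.63 in stopped tumours. The continued tumours lay close together, and the groups did not overlap. The difference was 1.73 ± 0.37 (adjusted p 0.174 by limma), and it was 1.53 to 1.94 with single tumours left out. Its start region (RefSeq, GRCm38.p6, chr6:41847299-41847598, plus strand) is shown for its matches to TTCNNNGAA, the letters of the STAT5 motif, STAT5 being the factor that prolactin activates. Both strands were searched, capitals mark the matches, and they begin at positions -140 and -42 relative to the start.
Pip: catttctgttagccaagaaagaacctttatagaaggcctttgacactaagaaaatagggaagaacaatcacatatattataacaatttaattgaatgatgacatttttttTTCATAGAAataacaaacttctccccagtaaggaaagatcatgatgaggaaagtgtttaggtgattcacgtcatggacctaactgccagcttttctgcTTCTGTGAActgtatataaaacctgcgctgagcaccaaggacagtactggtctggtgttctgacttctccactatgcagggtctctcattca
The motif occurred in 8.30% of 32851 promoter windows of this length, and a match is a description of letters only.

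Levels in the other groups of the series set these values in context. Scgb2b2 was at 14.33 ± 0.52 (SD, n = 2) in passage 1 control tumours and 14.98 ± 0.32 (SD, n = 3) in passage 1 RANK-Fc tumours, at 9.89 ± 0.17 (SD, n = 2) in passage 2 control tumours and 9.96 ± 1.15 (SD, n = 3) in started tumours, and at 12.43 ± 0.88 (SD, n = 3) in stopped and 14.89 ± 0.26 (SD, n = 3) in continued tumours. The continued tumours were within the range of the passage 1 tumours, the passage 2 tumours without earlier RANK-Fc were the lowest, and the stopped tumours lay between them. Pip in passage 2 was at 6.27 ± 0.30 (SD, n = 2) in control, 6.87 ± 0.39 (SD, n = 3) in started, 9.80 ± 0.44 (SD, n = 3) in stopped and 11.50 ± 0.12 (SD, n = 3) in continued tumours. In passage 1 it was 11.08 ± 1.22 (SD, n = 2) in control and 13.66 ± 0.49 (SD, n = 3) in RANK-Fc tumours. For Scgb2b2 the passage 2 control and started tumours overlapped. Pip was well above background in 1 of 2 control and 2 of 3 started tumours of passage 2, so the levels of those groups are near the background and have no order between them.

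Scgb2b2 overlapped between started and control tumours of passage 2, at 10.01, 11.09 and 8.79 against 9.77 and 10.01. The continued minus stopped difference exceeded the started minus control difference by 2.28 ± 0.72, with an unadjusted p of 0.008 and an adjusted p of 0.598 by limma, so this contrast between the 2 comparisons did not pass correction. The 2 comparisons share no tumour, but they come from 1 fit and some of their tumours shared arrays.

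**Figure D2:**
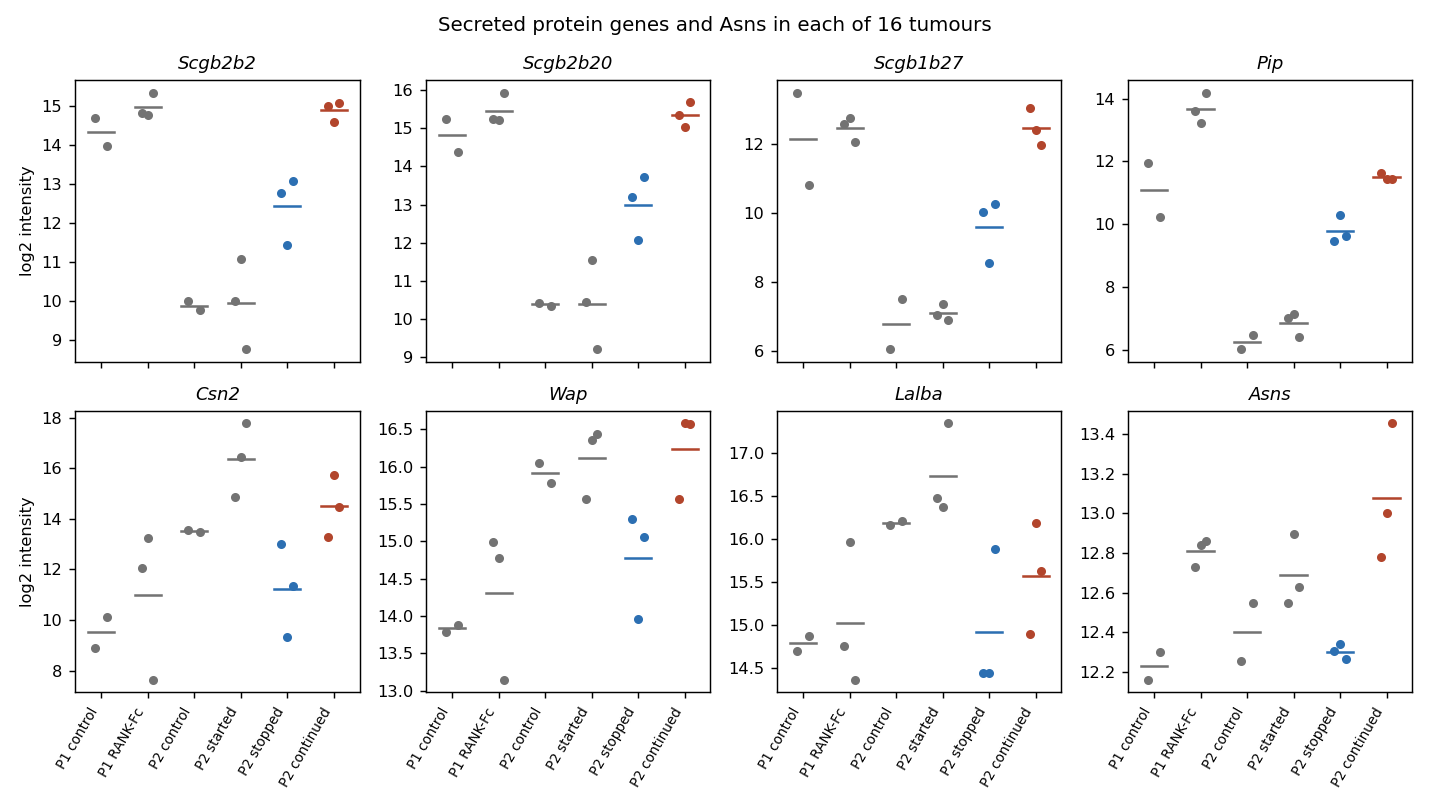
Levels of 7 secreted protein genes and Asns in each of the 16 tumours; the y axis is the log2 intensity with the dye effect removed, the x axis the 6 groups, each point is 1 tumour and each line a group mean. The secretoglobin genes and Pip are lowest in the passage 2 control and started tumours and higher in continued than in stopped tumours, while Csn2 is highest in started tumours.

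Exocrine proteins as a whole had both signs. Of 21 tested exocrine secreted protein genes, a list that holds the secretoglobins, 13 had a positive and 8 a negative difference, with a median of 0.11. At an unadjusted p under 0.05, 9 were higher and 2 lower (4.58% and 5.36% over all genes). The count of 9 was the same without any single tumour. It includes secretoglobin genes whose copies may share a signal, so it is not a count of independent genes. Among the 10 genes well above background in all tumours of the series, 8 were positive and the median was 1.05. Demilune cell and parotid protein genes Dcpp1, Dcpp2 and Dcpp3 had differences of -2.43 ± 1.22, -1.94 ± 1.12 and -2.87 ± 1.35, with c609 the highest tumour for Dcpp1 and Dcpp3 and c608 for Dcpp2, and none had an unadjusted p under 0.05. Chadl, a chondroadherin-like matrix protein gene that the list includes, was among the lowest genes of the comparison. The kallikrein gene Klk1b11, of a serine protease family with close copies, was at 8.29, 8.46 and 9.35 against 7.63, 7.55 and 7.92, a difference of 1.03 ± 0.22 (0.59 without c626). Sva, a seminal vesicle antigen gene related to Pip, was not well above background in stopped tumours and was at least 1.35-fold higher in continued ones.

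Asns makes asparagine from aspartate and is a standard target of ATF4, the transcription factor of the amino acid response. It was at 12.78, 13.00 and 13.45 in continued tumours and 12.30, 12.34 and 12.26 in stopped tumours. The stopped tumours lay close together, and all 3 continued tumours were above them. The difference was 0.83 ± 0.15, or 1.78-fold, with a 95% confidence interval of 0.51 to 1.16 and an adjusted p of 0.162 by limma. It was 0.57 to 0.98 with single tumours left out, and without c606 its adjusted p was 0.0384. Without both tumours of the shared array the difference was 0.53. Asns was also higher in started than in control tumours, by 0.35, and in passage 1 RANK-Fc tumours than in passage 1 controls, by 0.58, values given for orientation with no call.

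The start region of Asns is shown for a match to the letters of the amino acid response element (RefSeq, GRCm38.p6, chr6:7693160-7693459, minus strand). Capitals mark the match to TGATGNAA, searched on both strands, at position -23.
Asns: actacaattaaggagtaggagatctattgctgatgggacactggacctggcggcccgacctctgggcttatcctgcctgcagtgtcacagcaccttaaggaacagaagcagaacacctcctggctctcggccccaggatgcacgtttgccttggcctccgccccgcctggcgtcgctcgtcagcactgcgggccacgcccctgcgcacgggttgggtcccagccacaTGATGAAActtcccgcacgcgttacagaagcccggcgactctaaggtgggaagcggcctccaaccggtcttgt
Such a match occurred in 3.97% of the 32851 windows. The amino acid response list gave no common direction: of 22 tested genes, Asns included, 13 were positive and 9 negative, with a median of 0.03. Of these genes, 2 were higher and 0 lower at an unadjusted p under 0.05 (4.58% and 5.36% over all genes).

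Cyp51, the lanosterol demethylase of cholesterol synthesis, was at 7.96, 8.20 and 8.30 in continued and 7.65, 7.71 and 7.58 in stopped tumours. The groups did not overlap, and the difference of 0.54 ± 0.10 (adjusted p 0.162 by limma) was 0.43 to 0.63 with single tumours left out. Of 24 tested genes of cholesterol synthesis and uptake, 18 were positive (51% of all genes), 6 were higher (4.58% of all genes) and 0 lower at an unadjusted p under 0.05, and the median was 0.22. They included Insig1, which holds the sterol sensor in the endoplasmic reticulum, with 0.67 ± 0.16, and the late enzymes Tm7sf2 with 0.38 ± 0.12 and Dhcr7 with 0.49 ± 0.17. The count was 10 without c606 and 3 without c626 or without c609. Without both tumours of the shared array, c609 and c626, 11 genes were positive, 13 were negative and the median was -0.01. Dhcr7 was 0.32 without c626, and Tm7sf2 was 0.21 without c609. The sterol response letters TCACNCCAC, found in 1.24% of windows, did not occur in the Cyp51 start region; those of the other genes of the list were not searched.

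Genes of milk fat synthesis had a like lean. Of 28 tested, 19 were positive, 7 were higher (4.58% of all genes) and 0 lower at an unadjusted p under 0.05, 9 had all continued tumours above all stopped ones (5.97% of all genes), and the median was 0.30. Scd2, a fatty acid desaturase gene, had a difference of 0.41 ± 0.11. Acly, which supplies acetyl-CoA for fat, had 0.60 ± 0.20, and Thrsp, a regulator of mammary lipogenesis, had 0.69 ± 0.25. The higher count depended on single tumours, being 12 without c606, 2 without c626, 3 without c608, and 4 without c607 or without c609. Adipocyte markers moved with it: their mean level was 8.56, 8.95 and 10.19 in continued and 8.85, 7.90 and 8.83 in stopped tumours. All 15 tested markers were positive (51% of all genes), with a median of 0.77. Of them, 2 were higher at an unadjusted p under 0.05 (4.58% of all genes). That count was 11 without c606 (1125 of 14131 over all genes), 4 without c603 (478 over all genes) and 0 without c607, c608 or c626. Without c626, which held the highest level, 13 were positive and the median was 0.15. The part of fat tissue in the lipid genes was not tested.

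Milk protein genes, the products of secretory differentiation, had mostly positive differences but varied widely between tumours. Of 33 tested, 26 were positive and 7 negative (51% and 49% over all genes), with a median of 0.38. At an unadjusted p under 0.05, 12 were higher and 2 lower (4.58% and 5.36% over all genes). The groups were separate for 11 in the higher direction and 1 in the lower (5.97% and 6.65% over all genes). The higher count was 4 without c608 and 6 without c626. Tumour c608 also had the highest fibroblast and muscle marker levels, 10.81 and 9.31, and the lowest mammary epithelial level, 12.03, and the part of these in the milk protein values was not tested. Csn2, β-casein, was at 13.29, 15.72 and 14.47 in continued tumours and 13.00, 9.34 and 11.34 in stopped ones. The groups did not overlap, yet c606 and c603 nearly met, and c608 lay far below the rest. The difference was 2.94 ± 1.23 (adjusted p 0.446 by limma), and 2.27 to 3.86 with single tumours left out.

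Csn1s1 and Csn1s2a, further casein genes chosen after their values were seen, had differences of 2.19 ± 0.81 and 3.27 ± 1.06. Wap, whey acidic protein, was at 15.57, 16.58 and 16.58 against 15.30, 13.96 and 15.06, with a difference of 1.36 ± 0.45 (adjusted p 0.322 by limma). Its groups did not overlap, although c606 and c603 nearly met. Lalba, α-lactalbumin of lactose synthesis, was at 14.90, 16.18 and 15.62 against 14.44, 14.45 and 15.88. Here the groups overlapped, and the interval of the difference of 0.49 ± 0.46 ran from -0.50 to 1.47. Mfge8, the milk fat globule protein, went the other way with -0.88 ± 0.29, from 16.49, 16.49 and 15.39 against 16.92, 16.77 and 17.13. It was -0.35 without c626, the lowest tumour, and -0.17 without both tumours of the shared array. Pthlh, the parathyroid hormone-related peptide of mammary cells, had 0.93 ± 0.24, and the milk peroxidase gene Lpo had 1.12 ± 0.32.

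The caseins were also higher in started than in control tumours of passage 2. Csn2 was at 13.54 ± 0.06 (SD, n = 2) in control and 16.37 ± 1.45 (SD, n = 3) in started tumours, a fitted difference of 3.01 ± 1.37. For Csn1s1 the started minus control difference was 2.26 and for Csn1s2a 3.67. The continued tumours, at 14.49 ± 1.22 (SD, n = 3), had a lower mean Csn2 level than the started ones, while for Scgb2b2 and Pip the continued tumours had the higher mean. The start region of Csn2 (RefSeq, GRCm38.p6, chr5:87699376-87699675, minus strand) is shown for its single match to the STAT5 letters TTCNNNGAA, in capitals, at position -93.
Csn2: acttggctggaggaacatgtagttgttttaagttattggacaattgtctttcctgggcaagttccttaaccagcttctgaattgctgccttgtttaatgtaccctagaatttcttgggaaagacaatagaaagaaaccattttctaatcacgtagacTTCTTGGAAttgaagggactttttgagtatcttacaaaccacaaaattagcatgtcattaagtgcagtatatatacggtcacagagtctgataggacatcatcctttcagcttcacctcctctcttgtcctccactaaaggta
Wap had no such match in its window.

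The regulators of alveolar fate gave smaller values. Elf5, the transcription factor of alveolar differentiation, was at 13.83, 14.30 and 14.36 against 13.80, 13.34 and 13.85, a difference of 0.48 ± 0.17. The groups overlapped between c606 and c609. Socs3, a feedback inhibitor of cytokine receptors, had -0.35 ± 0.13. Of 13 tested genes of the prolactin and STAT5 axis, 5 were positive and 8 negative. Tfap2b, an AP-2 factor gene that had a started minus control difference of -1.94, differed by -0.09 ± 0.57, and the 3 tested AP-2 genes were all slightly negative. Genes of secretory load were mostly positive, 16 of 22 with a median of 0.07. They included Xbp1, the factor of the unfolded protein response in secretory cells, with 0.64 ± 0.15 and with levels of 16.60, 16.81 and 17.16 against 16.39, 16.27 and 16.18, and the membrane protein gene Serp1 with 0.29 ± 0.09.

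The other genes with the smallest p in the higher direction had small differences. Ica1, a secretory granule protein gene, was at 10.68, 10.78 and 10.60 against 10.11, 10.41 and 10.21, a difference of 0.43 ± 0.09. Klhl7, a ubiquitin ligase adaptor gene, had 0.41 ± 0.09, and Faah, which degrades fatty acid amides, had 0.66 ± 0.15. None of these 3 overlapped between groups (5.97% of all genes were separate in the higher direction), which their choice by p favours.

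Among the genes lower in continued tumours were regulators of survival, adhesion and cell communication. Bcl2, the founding anti-apoptotic gene, was at 9.07, 8.91 and 8.86 in continued tumours and 9.48, 9.85 and 9.60 in stopped ones. The groups were separate, with a difference of -0.71 ± 0.12 that was -0.81 to -0.61 with single tumours left out. Over the survival and death list, 9 of 21 genes were positive and 12 negative. The anti-apoptotic gene Bcl2l2 was higher by 0.27 ± 0.10, opposite to Bcl2.

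Cx3cl1, the membrane-bound chemokine fractalkine, was at 10.98, 11.32 and 11.11 against 11.86, 11.97 and 12.03. No continued tumour reached a stopped one, and the difference was -0.80 ± 0.14. Itga6, the laminin receptor subunit α6 of basal and progenitor cells, was at 14.52, 14.44 and 14.05 against 15.00, 15.20 and 15.08, with -0.78 ± 0.14. Chadl was at 9.76, 9.19 and 9.48 against 11.11, 11.76 and 11.93. With -2.13 ± 0.41 it had the largest difference of the 12 lower genes, the groups were far apart, and the stopped tumours were near the passage 1 tumours, at 11.06 ± 0.18 (SD, n = 2) in control and 11.23 ± 0.09 (SD, n = 3) in RANK-Fc, while the continued ones were near the started, at 9.22 ± 0.95 (SD, n = 3). Passage 2 control tumours, which never received RANK-Fc, were at 8.36 ± 1.06 (SD, n = 2).

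Signalling and cytoskeletal genes made up the rest. Arhgap31, a Rac and Cdc42 inhibitor, differed by -1.17 ± 0.22, and Mtmr7, a phosphoinositide phosphatase gene, by -1.23 ± 0.23, from 7.45, 6.97 and 6.61 against 8.12, 8.29 and 8.25. Ramp1, a partner of the receptor for calcitonin gene-related peptide, had -0.96 ± 0.17, and Sh3bp1, a GTPase-activating protein gene, had -0.80 ± 0.13. The lipid raft gene Rftn1 had -0.96 ± 0.18, the transcriptional inhibitor gene Mdfi -0.72 ± 0.13 and Ccdc126 -0.90 ± 0.16. All 12 genes were separate between groups (6.65% of all genes in the lower direction), at an adjusted p of 0.162 by limma. They were chosen by p in this same comparison, which favours such separation. For Sh3bp1, Ramp1, Ccdc126 and Mtmr7 other probes of the gene that passed the filter were nearer to 0: -0.17 and -0.08 for Sh3bp1, -0.27 and -0.11 for Ramp1, -0.15 for Ccdc126 and -0.33 for Mtmr7, so those 4 differences belong to 1 probe each.

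Notch genes, which govern luminal cell fate, had mostly negative differences. Notch2, a receptor, was at 9.32, 9.13 and 9.12 in continued and 9.74, 9.85 and 10.00 in stopped tumours. The groups did not overlap, with a difference of -0.70 ± 0.12. Jag1, a ligand, was at 8.05, 7.95 and 7.98 against 8.87, 9.17 and 8.60 with -0.85 ± 0.19, and the ligand gene Dll1 had -0.33 ± 0.14. Of 15 tested Notch genes, 11 were negative (49% of all genes), and the median was -0.17. At an unadjusted p under 0.05, 3 were lower (5.36% of all genes) and 0 higher. The lower count was 5 without c606 or without c608 and 2 to 4 without any other tumour. The median was -0.06 without c609, when Dll1 was -0.19, and -0.03 without both tumours of the shared array, c609 and c626.

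Wnt genes, which regulate mammary progenitor cells, were mostly negative too. Of 28 tested, 22 were negative (49% of all genes), 5 were lower (5.36% of all genes) and 1 higher at an unadjusted p under 0.05, 6 were separate in the lower direction (6.65% of all genes), and the median was -0.26. Wnt5b, a ligand, was at 12.11, 11.70 and 10.64 against 12.67, 12.68 and 12.19, a difference of -1.07 ± 0.27. The groups did not overlap, c606 and c609 nearly met, and c626 was the lowest; without c626 it was -0.51. The receptors Fzd7 and Fzd1 had -0.68 ± 0.19 and -0.51 ± 0.16, and the ligand gene Wnt7b had -0.61 ± 0.19. Fzd7 was -0.45 and Wnt7b -0.38 without c626. The lower count was 10 without c606 and 5 or 6 without any other tumour.

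Receptor tyrosine kinase ligands were mixed. Of 18 tested genes of the ErbB and FGF families, 5 were positive and 13 negative (51% and 49% over all genes). At an unadjusted p under 0.05, 2 were higher and 4 lower (4.58% and 5.36% over all genes). Egf, the epidermal growth factor that milk also carries, was at 8.35, 8.85 and 9.54 against 7.56, 7.69 and 8.34, with a difference of 1.06 ± 0.32, and c606 and c609 nearly met. It was 0.67 without c626. The receptor gene Fgfr1 had -1.03 ± 0.35, with c609 high at 13.50, and it was -0.43 without c609. The ligand genes Fgf1 and Nrg2 had -0.81 ± 0.25 and -0.71 ± 0.22, which were both -0.46 without c608.

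Cell state lists gave the following. Of 14 luminal progenitor genes, 11 were negative (49% of all genes), with a median of -0.18. At an unadjusted p under 0.05, 3 were lower (5.36% of all genes) and 1 higher (4.58%). Cd200, a surface glycoprotein gene, was at 9.06, 8.17 and 8.35 against 9.66, 9.54 and 10.21, the groups being separate, with -1.30 ± 0.29. The integrin gene Itgb3 had -0.89 and the tetraspanin gene Tspan8 -1.59 ± 0.66. The lower count was 5 without c606 and 1 without c609, when Itgb3 was -0.52 and Tspan8 -0.85. Without both tumours of the shared array the list stood at 7 positive and 7 negative. Among 16 general luminal genes 10 were positive, with Spdef, a secretory cell factor, at 0.89 ± 0.34 (0.45 without c626). The basal list had 13 of 18 negative, the stem cell list 9 of 16 positive with Myc at 0.36 ± 0.15, the hormone-sensing list 7 of 12 negative and the squamous list 6 of 12. Proliferation genes had no common direction: 14 of 30 were positive, 0 reached an unadjusted p under 0.05 and the median was -0.01. Immediate early genes were split, 12 positive and 9 negative, with 2 higher and 1 lower at an unadjusted p under 0.05 (4.58% and 5.36% over all genes).

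Matrix proteases and their inhibitors had mostly negative differences. Of 22 matrix proteases and inhibitors, 16 were negative (49% of all genes), and the median was -0.20. At an unadjusted p under 0.05, 6 were lower (5.36% of all genes) and 1 higher (4.58%). Mmp13, collagenase 3, was at 7.60, 6.36 and 6.83 against 7.63, 9.82 and 8.62, a difference of -1.80 ± 0.59. The groups barely parted, since c606 and c603 were almost equal and c608 was the highest. Mmp11, stromelysin 3, had -0.79 ± 0.20, Mmp10 had -0.98 ± 0.35 and the inhibitor gene Timp2 -0.84 ± 0.29. The lower count was 1 without c608 and 3 without c607 or without c626, when Timp2 was -0.45. In the mesenchymal list 14 of 17 were negative (49% of all genes) with a median of -0.23. At an unadjusted p under 0.05, 2 were lower (5.36% of all genes), or 1 without c607, c608 or c609. The 2 were Tgfb3, a TGF-β ligand, with -0.76 ± 0.26 (-0.49 without c626), and the matrix glycoprotein gene Tnc with -0.73 ± 0.32.

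Fibroblast and muscle markers were highest in c608. Fibroblast markers had a mean level of 9.89, 9.52 and 9.96 in continued and 9.64, 10.81 and 10.24 in stopped tumours. Of 20, 18 were negative with a median of -0.38, and 13 were negative with a median of -0.14 without c608. Skeletal muscle markers were at 7.26, 7.08 and 7.14 against 7.17, 9.31 and 7.02, again with c608 alone high, and 9 of 20 passed the filter. In bulk tissue, fewer cells of a type and less RNA per cell cannot be told apart. The part of stroma in the protease and mesenchymal values was not tested.

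Hypoxia and glycolysis genes were mostly negative, with c626 the lowest tumour for the 4 named members. Of 24 tested, 20 were negative (49% of all genes), with a median of -0.25. At an unadjusted p under 0.05, 6 were lower (5.36% of all genes) and 0 higher, yet 0 were separate between the groups. The glucose transporter gene Slc2a1 was at 11.88, 11.66 and 10.93 against 12.27, 11.76 and 11.98, with -0.57 ± 0.22. Pfkfb3, a regulator of glycolysis, had -0.69, the carbonic anhydrase gene Car9 -0.67 and Ndrg1 -0.69. Without c626 the list had 14 positive and 10 negative genes and a median of 0.03, and Slc2a1 was -0.18, Pfkfb3 -0.22, Car9 -0.41 and Ndrg1 -0.15. The lower count was 1 without c626, 13 without c606, 0 without c603, 1 without c609, 3 without c607 and 9 without c608.

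**Figure D3:**
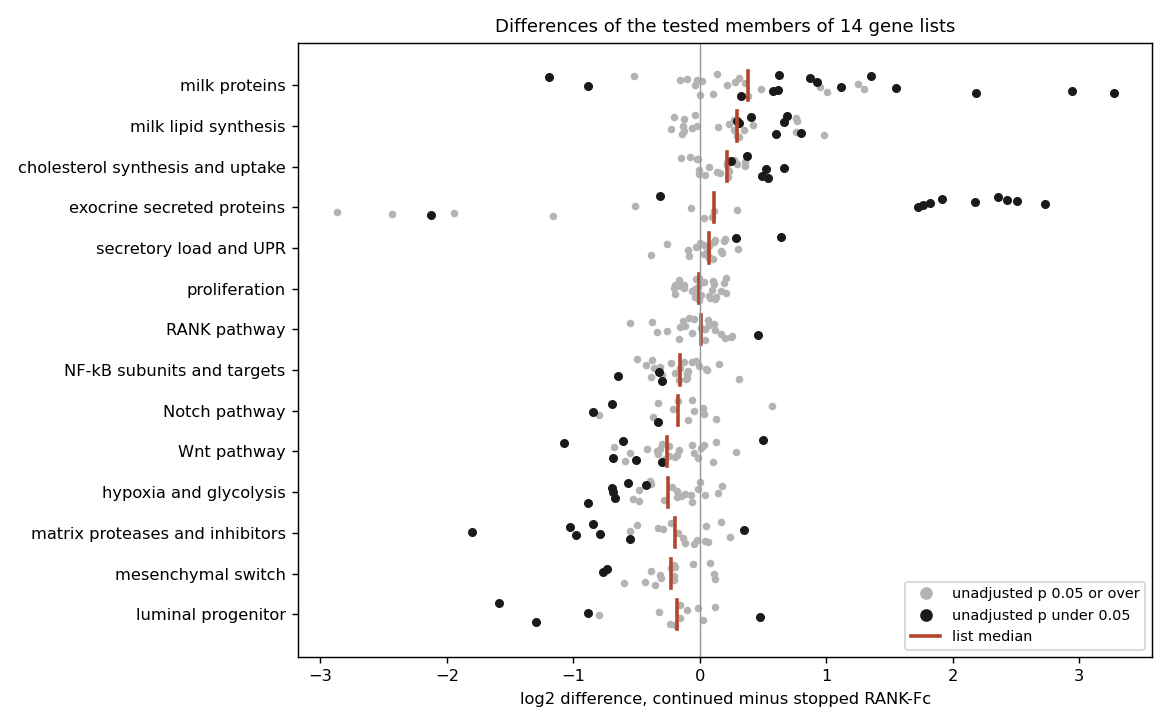
Differences of the tested members of 14 gene lists; the x axis is the continued minus stopped log2 difference, each point is a gene (dark where the unadjusted p is under 0.05), and a line marks each list's median. Milk protein, milk lipid and cholesterol genes lie mostly to the right of 0, and Notch, Wnt, NF-κB and hypoxia genes mostly to the left.

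Macrophage markers had negative differences, few of which passed the unadjusted threshold. Their mean level was 10.27, 10.17 and 10.35 in continued and 10.61, 10.73 and 10.58 in stopped tumours, so the groups did not overlap. All 19 tested markers had a negative difference (49% of all genes), with a median of -0.42. Of them, 8 were separate in the lower direction (6.65% of all genes). An unadjusted p under 0.05 was reached by 5, all lower (5.36% of all genes). The complement gene C1qc was at 11.45, 11.31 and 11.29 against 11.92, 12.07 and 11.89, a difference of -0.65 ± 0.20. Ms4a7, a membrane gene of tissue macrophages, had -0.86 ± 0.28, and C1qa and C1qb had -0.63 ± 0.29 and -0.47 ± 0.21. Cx3cr1, the receptor of the chemokine Cx3cl1 described above, had -0.51 ± 0.28. The median stayed between -0.35 and -0.50 with single tumours left out, and the lower count was 2 without c603, c606, c607 or c608, 3 without c609 and 6 without c626. With slide row as a term the median was -0.59, with 8 markers lower. The part of macrophages in the lower NF-κB and Cx3cl1 signals was not tested.

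Markers and genes of other immune processes gave the following. All 6 neutrophil markers and 18 of 20 T and NK cell markers were negative, with 0 at an unadjusted p under 0.05, and B cell markers were split 3 to 4. Of 16 antigen presentation genes 15 were negative, with a median of -0.24 and 0 at an unadjusted p under 0.05. Leaving out both tumours of the shared array set c606 and c607 against c603 and c608 alone. The medians were then -1.05 for antigen presentation, with 10 lower, and -0.83 for T and NK cell markers, with 11 lower at an unadjusted p under 0.05. Over all genes 799 of 14131 were lower in that setting. Interferon response genes varied by tumour and not by group: their mean level was 9.07, 10.39 and 11.05 in continued and 10.92, 10.30 and 9.43 in stopped tumours, with c606 and c609 the lowest. Endothelial markers had 9 positive and 6 negative members. Erythroid markers were at 11.44, 10.40 and 11.96 against 10.26, 12.37 and 11.39, with no order by group.

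**Figure D4:**
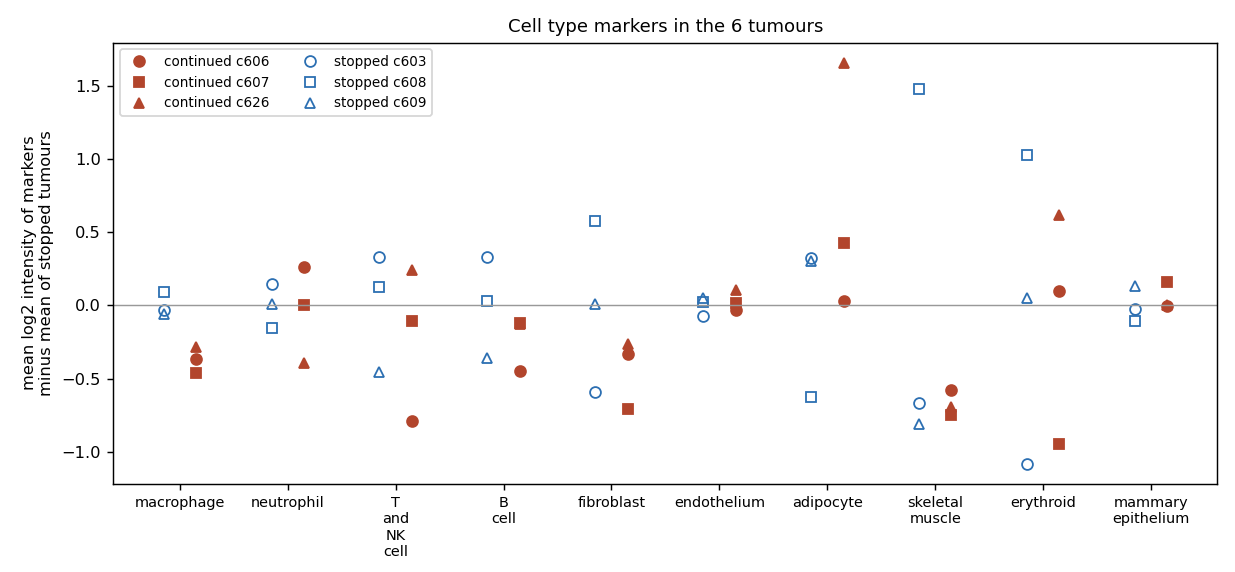
Mean log2 intensity of the markers of 10 cell types in each of the 6 tumours, relative to the mean of the stopped tumours on the y axis, with 1 point per tumour. The macrophage points of the 2 groups do not overlap, the fibroblast and muscle points are led by c608, and the adipocyte points by c626.

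The genes that differed between continued and stopped tumours were compared with the first use of RANK-Fc. In started against control tumours of passage 2, 0 of 14131 genes had an adjusted p under 0.05 by limma and 561 (3.97%) had an unadjusted p under 0.05. Over all 14131 genes the differences of the 2 comparisons had a Pearson r of 0.01. Of the 12 genes with the smallest p in the higher direction, 11 were also positive there, against 54.9% of all genes. Only 1 of these had an unadjusted p under 0.05 there, and several are secretoglobin genes that may share a signal. Of the 12 lower genes, 7 were positive and 5 negative, against 45.1% of all genes that were negative, and 1 had an unadjusted p under 0.05. In RANK-Fc against control tumours of passage 1, 229 genes (1.62%) had an unadjusted p under 0.05. There, 10 of the 12 higher genes were positive (46% of all genes), and 8 of the 12 lower genes were negative (54% of all genes). Of the 12 higher genes 2, and of the 12 lower genes 0, had an unadjusted p under 0.05. Over all genes the Pearson r with the passage 1 differences was 0.14. Cx3cl1 differed by 0.29, Rftn1 by 0.52 and Mtmr7 by 0.46 in started against control tumours, opposite in sign to the continued against stopped difference. The difference between the comparisons was -1.10 for Cx3cl1.

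No gene's contrast passed correction. For the difference from the started comparison, 0 genes had an adjusted p under 0.05 by limma, 961 (6.8%) had an unadjusted p under 0.05, and the smallest adjusted p was 0.4998. For the difference from passage 1 it was 0, 513 (3.63%) and 0.999. Of the 12 higher genes, 9 had an unadjusted p under 0.05 against the started comparison and 10 against passage 1, and of the 12 lower genes all 12 did in both, counts which the choice of genes by the first difference favours. Without started tumour c635, 4 genes had an adjusted p under 0.05 in the difference from the started comparison, Chadl, Col4a6, Emp1 and Mtmr7. Without control tumour c642, 1 did, Ebna1bp2, and without passage 1 control c564, Npr3 did in the difference from passage 1.

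**Figure D5:**
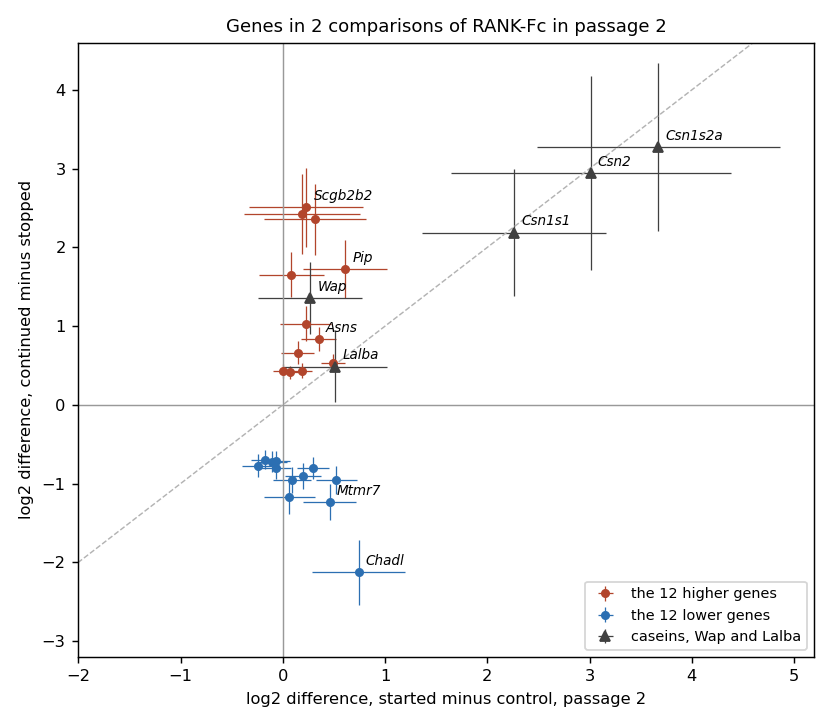
Log2 differences in 2 comparisons of passage 2 that share no tumour, for the 24 genes with the smallest p and 5 milk protein genes; the x axis is started minus control, the y axis continued minus stopped, bars are ±1 standard error, the dashed line marks equal differences and some genes are labelled. Caseins are positive on both axes, the secretoglobins and Pip on the y axis mainly, and Chadl lies at the bottom.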

How the data were processed

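Total RNA of 16 tumours was labelled and hybridised, 1 tumour per channel, on 8 Agilent arrays of 62976 spots. Per the file headers, the deposited files are scanner output with median foreground and background intensity per spot and dye, and quality marks (a score of 0 or 1) for outlier and above-background spots. The authors' log10 ratio column was used to check the direction, and ran with the red over green signals at r of 0.670 to 0.854. Feature Extraction 10.7.3.1 is named in the submitters' processing notes. The genome build of the array design was not used, and 8 columns of the series table that match no sample label were left out.

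Signals were corrected with normexp (offset 50), and normalised by loess within arrays and Aquantile between arrays, in limma 3.58.1 (statmod 1.5.0, R 4.3.3, jsonlite 2.0.0). These log2 values were computed here from the deposited intensities. Outlier and control spots were left out and spots of 1 probe averaged. Of 55681 probes, 28026 were named through RefSeq accessions. Probes had to be well above background in all tumours of 1 or more of the 6 groups; each gene was read from its brightest probe of these, which left 14131 genes, and 25.8% of genes had several such probes. The fit held 6 group means, a dye term and the array as a block, with an intraspot correlation of 0.22, corrected from limma's 0.42 with data simulated at known correlation. Empirical Bayes moderation gave 12.4 degrees of freedom, and p-values were adjusted by Benjamini-Hochberg over all genes for each of the comparisons.

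The tumours' number limits the precision. A fold given as "at least" sets the bright group's mean against the higher of the dim probe's own signal and the lowest signal well above background on each array. Named genes were any past an adjusted p of 0.05, the 12 with the smallest p in each direction that were above background in all 3 tumours of the higher group, up to 4 members of each list by p, and a fixed set (Tnfrsf11a, Tnfsf11, Tnfrsf11b, Pip, Csn2, Wap, Lalba, Elf5, Tfap2b, Scgb1b27, Scgb2b2); further secretoglobin, Dcpp and casein genes, Cx3cr1 and genes called in alternatives were named after their values were seen. Members, 27 gene lists and 10 marker lists were chosen with earlier results of these data known. The alternatives changed the background correction, normalisation, filter, probe rule, correlation, dye term, samples and prior, and slide row as a term was chosen after seeing the data. The fit was tested on simulated data. Start regions were read with Python 3.11.15 (pandas 2.3.3, numpy 2.4.6, biopython 1.88; figures with matplotlib 3.10.9).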

Additional observations from a re-analysis of the deposited data

How the results depend on the processing

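No gene had an adjusted p under 0.05 by limma under any of the 16 alternatives other than leaving out single tumours. Leaving out single tumours gave 0 to 31 such genes, 31 without c606 and 1 without c609. The higher genes at an unadjusted p under 0.05, 647 as reported, numbered 977 of 21154 genes with no filter on dim probes, 404 with the tumours of both groups alone, and 309 to 1125 with single tumours left out. The lower genes, 758 as reported, numbered 316 with median centring, which moved the median difference over all genes to 0.08 and the positive share to 66.1%. Genes differing from the started comparison numbered 0 to 4 and from passage 1 0 to 1 with single tumours left out. Signs turned for 3 named genes: Tnfrsf11a ranged from -0.0126 to 0.24 with single tumours left out, Id2, 0.46 as reported, was -0.0008 without both tumours of the shared array, and Tfap2b was 0.11 with processed signals, 0.0159 with median centring, 0.10 with the uncorrected correlation, 0.45 with slide row as a term, and -0.27 to 0.11 with single tumours left out. Slide row as a term was fitted over all 16 tumours, c609 being the single stopped tumour of row 1. With this term Scgb2b2 was 2.28, Asns 0.87, Pip 1.66, Csn2 2.64, Chadl -1.92 and Bcl2 -0.66, with 472 higher and 679 lower genes. Of the values of the genes named in the text, 2040 kept their direction and side of the threshold, and of list medians 768 stayed within the spread and 46 moved, 15 of these without both tumours of the shared array.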

Other observations

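Without c606, the genes with an adjusted p under 0.05 by limma were 10 higher and 21 lower in the remaining continued tumours, with adjusted p between 0.0369 and 0.0496. They were chosen after their values were seen and rest on 2 continued tumours. Among the higher ones, Txnip, a redox and glucose sensor gene, differed by 1.11, the stomach and skin surface gene Plet1 by 1.11, and the sterol regulator Insig1 by 0.90. Among the lower ones were the calcium-binding protein gene S100a14 with -2.004, the tetraspanin-like gene Tm4sf1 with -2.03, the receptor phosphatase gene Ptprs with -1.71, the desmosome gene Dsp with -1.36, the oncostatin M receptor gene Osmr with -0.83, and the stress-induced gene Gadd45b with -1.09. With c606 included, 0 of these genes had an adjusted p under 0.05.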
